A study of Homo sapiens with 15 samples.

Results

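A set of 10 genes that carry negative feedback on ERK signalling, or that report its transcriptional output, was followed across SKOV3ip1 cultures. They were SPRY1, SPRY2, SPRY4, SPRED1, SPRED2, DUSP4, DUSP5, DUSP6, ETV4 and ETV5, out of 19775 genes named on the array. The genes were taken with every probe set that carried one of these symbols alone, which gave 24 of 54613 probe sets. The genes were chosen by their measured levels, because DUSP6 and SPRY2 stood high in the culture titled MTF+MORAb0003, and the SPRY genes low in the culture titled 5-MTF+003. Levels in those 2 cultures are therefore given as a description, without a test.

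SKOV3ip1 is a human epithelial ovarian cancer cell line that carries abundant folate receptor alpha, the target of the antibody MORAb-003. All cultures ran for 7 days and each gave 1 RNA extract, of which 3 aliquots were hybridised to Affymetrix U133 Plus 2.0 arrays, so that 15 arrays describe 5 cultures. The MTF+MORAb0003 culture had folic acid and the antibody labelled MORAb003 for 24 hours. The 5-MTF+003 culture had folic acid and the antibody labelled 003 for 24 hours, and whether 003 and MORAb003 are 1 reagent is not stated. The no MTF culture was kept in folate-free medium without antibody. The 5-MTF+004 culture had folic acid and the control antibody 004 for 24 hours, and the 5-MTF culture had folic acid alone. Folic acid is described as physiological, at 2 to 10 nM (the labels write nm), while the titles name MTF. With 1 culture per condition, the 3 arrays of a culture are technical repeats. Every SD, and every p-value, below measures the spread between aliquots of 1 extract and not between cultures.

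Growth factor receptors activate RAS, which activates the kinases RAF, MEK and ERK in turn. Active ERK induces genes whose products switch the pathway off again. The dual-specificity phosphatases DUSP6, in the cytoplasm, and DUSP5 and DUSP4, in the nucleus, remove the activating phosphates from ERK, and DUSP4 also acts on other MAP kinases. Sprouty proteins (SPRY1, SPRY2, SPRY4) and the related SPRED1 and SPRED2 act upstream and hold back the activation of RAS and RAF. ETV4 and ETV5 are ETS-family transcription factors whose genes are themselves induced by ERK. The messenger RNA levels of such genes are commonly read as a sign of ERK output in tumour cells. No ERK protein or phosphorylation was measured here.

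Values are log2 expression per probe set, as deposited. Folds are taken from differences of log2 means, and the values end near 4, so folds of dim genes may be understated. A probe set was put through the fit if its mean over the 15 arrays reached log2 6.61, the median over all probe sets, which kept 17 of the 24. All 3 probe sets of SPRED1, 2 of the 3 of SPRED2 and 2 of the 5 of ETV5 were below it. Where cultures were compared without a test, a probe set was said to stand apart if the 3 arrays of one culture did not overlap the 3 of the other and the means differed by at least 1.5-fold.

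Most, not all, markers of the labelled line were high. All 9 epithelial genes passed the filter, of which FOLR1, KRT8, KRT18, KRT19 and EPCAM lay between the 98.7th and 99.7th percentile of all probe sets. ERBB2, KRT7, MUC1 and CLDN4 lay between percentiles 70 and 85.8, and ERBB2, the highest of them, was below the stromal gene COL1A1. The leukocyte genes PTPRC, CD14 and LYZ lay under the filter, and CD3E passed it at the 58th percentile. Of 7 stromal genes 5 passed it, with COL3A1 and PDGFRB below and COL1A1 highest at percentile 86.3. In MTF+MORAb0003 and in 5-MTF+003, each against 5-MTF, 0 of the 5 stood apart in either direction. Of all genes, 8.09% and 0.766% stood apart and higher there, and 2.08% and 6.68% lower. CDH5 stood apart at 0.80 in MTF+MORAb0003 against 5-MTF+004, and not without replicate 1 of 5-MTF+004. COL1A1 stood apart at -0.59 in MTF+MORAb0003 against 5-MTF+003. Some epithelial genes differed: against 5-MTF, KRT8 stood apart at 0.67 in MTF+MORAb0003, and MUC1 and CLDN4 at 0.63 and 0.59 in 5-MTF+003. In no MTF limma called MUC1 and CLDN4, which rose by 1.08 (adjusted p = 0.00102) and 0.61 (adjusted p = 0.025). The part of these shifts in the results below was not tested. Replicate 1 of the 5-MTF+004 culture stood apart from its own culture, with a correlation of at most 0.9496 against 0.9949 or more for every other array, and a 90th percentile of log2 9.04 against 9.73 and 9.74. Results that rest on it are given with and without it. The actin probe sets, whose 3′ over 5′ signal grows as RNA gets shorter, gave a gap of log2 2.42 ± 0.13 (SD, n = 3 arrays) in MTF+MORAb0003, 4.02 ± 0.10 in 5-MTF+003, 4.09 ± 0.16 in no MTF, 3.46 ± 0.31 in 5-MTF+004 and 3.24 ± 0.13 in 5-MTF.

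DUSP6, the cytoplasmic ERK phosphatase, was high with MORAb003 and low with 003 in each of its 3 probe sets. The brightest, 208891_at, read log2 12.95, 12.96 and 12.91 in MTF+MORAb0003. It read 10.52, 10.48 and 10.85 in 5-MTF+003, 11.53, 11.55 and 11.71 in no MTF, 10.40, 11.37 and 11.48 in 5-MTF+004, and 11.67, 11.52 and 11.59 in 5-MTF. All 3 MTF+MORAb0003 arrays lay above the other 12 arrays, all 3 5-MTF+003 arrays lay below those of 5-MTF and no MTF, and the no MTF and 5-MTF arrays overlapped. The low 5-MTF+004 value is the array that stood apart, and the other 2 lay just under the 5-MTF arrays. The mean was 2.55-fold higher in MTF+MORAb0003 than in 5-MTF and 3.62-fold higher than in 5-MTF+004. On the log2 scale the difference from 5-MTF+004 was 1.86, and 1.52 without replicate 1 of 5-MTF+004. A level in such bulk RNA does not tell fewer cells of a kind from less RNA per cell. In 5-MTF+003 it was lower than in 5-MTF by a log2 difference of -0.98, and than in 5-MTF+004 by -0.47, or -0.81 without that array. The other DUSP6 probe sets, 208892_s_at and 208893_s_at, differed between MTF+MORAb0003 and 5-MTF by 1.29 and 1.31, and between 5-MTF+003 and 5-MTF by -0.92 and -0.87. Both correlated with the brightest at r = 0.99 over the 15 arrays. These probe sets read the same transcripts in the same RNA and do not replicate the cultures.

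DUSP5, the nuclear phosphatase specific for ERK, was high with MORAb003 only. Its probe set 209457_at read 12.04, 11.99 and 11.99 in MTF+MORAb0003, 10.88, 10.71 and 11.04 in 5-MTF+003, 11.09, 11.03 and 10.98 in no MTF, 9.97, 11.04 and 11.01 in 5-MTF+004, and 11.24, 11.12 and 11.07 in 5-MTF. The MTF+MORAb0003 arrays lay above all others, by 0.86 on the log2 scale over 5-MTF, and the remaining cultures, taken in order of their means, overlapped their neighbours. Against 5-MTF, the 5-MTF+003 arrays did not overlap and differed by -0.27, which is under 1.5-fold.

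DUSP4, the third phosphatase, had a different order of cultures. Its brightest probe set, 204015_s_at, read 7.90, 7.88 and 7.95 in MTF+MORAb0003, 7.76, 7.86 and 7.97 in 5-MTF+003, 8.08, 7.97 and 8.12 in no MTF, 7.71, 7.46 and 7.51 in 5-MTF+004, and 7.50, 7.65 and 7.62 in 5-MTF. Here no MTF had the highest mean and the MTF+MORAb0003 and 5-MTF+003 arrays overlapped. Against 5-MTF, the MTF+MORAb0003 and 5-MTF+003 means were both slightly higher, by 0.32 and 0.27. The probe set 226034_at placed MTF+MORAb0003 first instead, at 7.98 ± 0.056 against 7.14 ± 0.062 in 5-MTF (SD, n = 3 arrays each), and 204014_at again placed no MTF first. The 3 probe sets thus did not order the cultures alike. In MTF+MORAb0003 against 5-MTF they shared a sign, with differences from 0.31 to 0.84, and in 5-MTF+003 against 5-MTF 1 of the 3 had the opposite sign, with a range from -0.19 to 0.27.

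**Figure D1:**
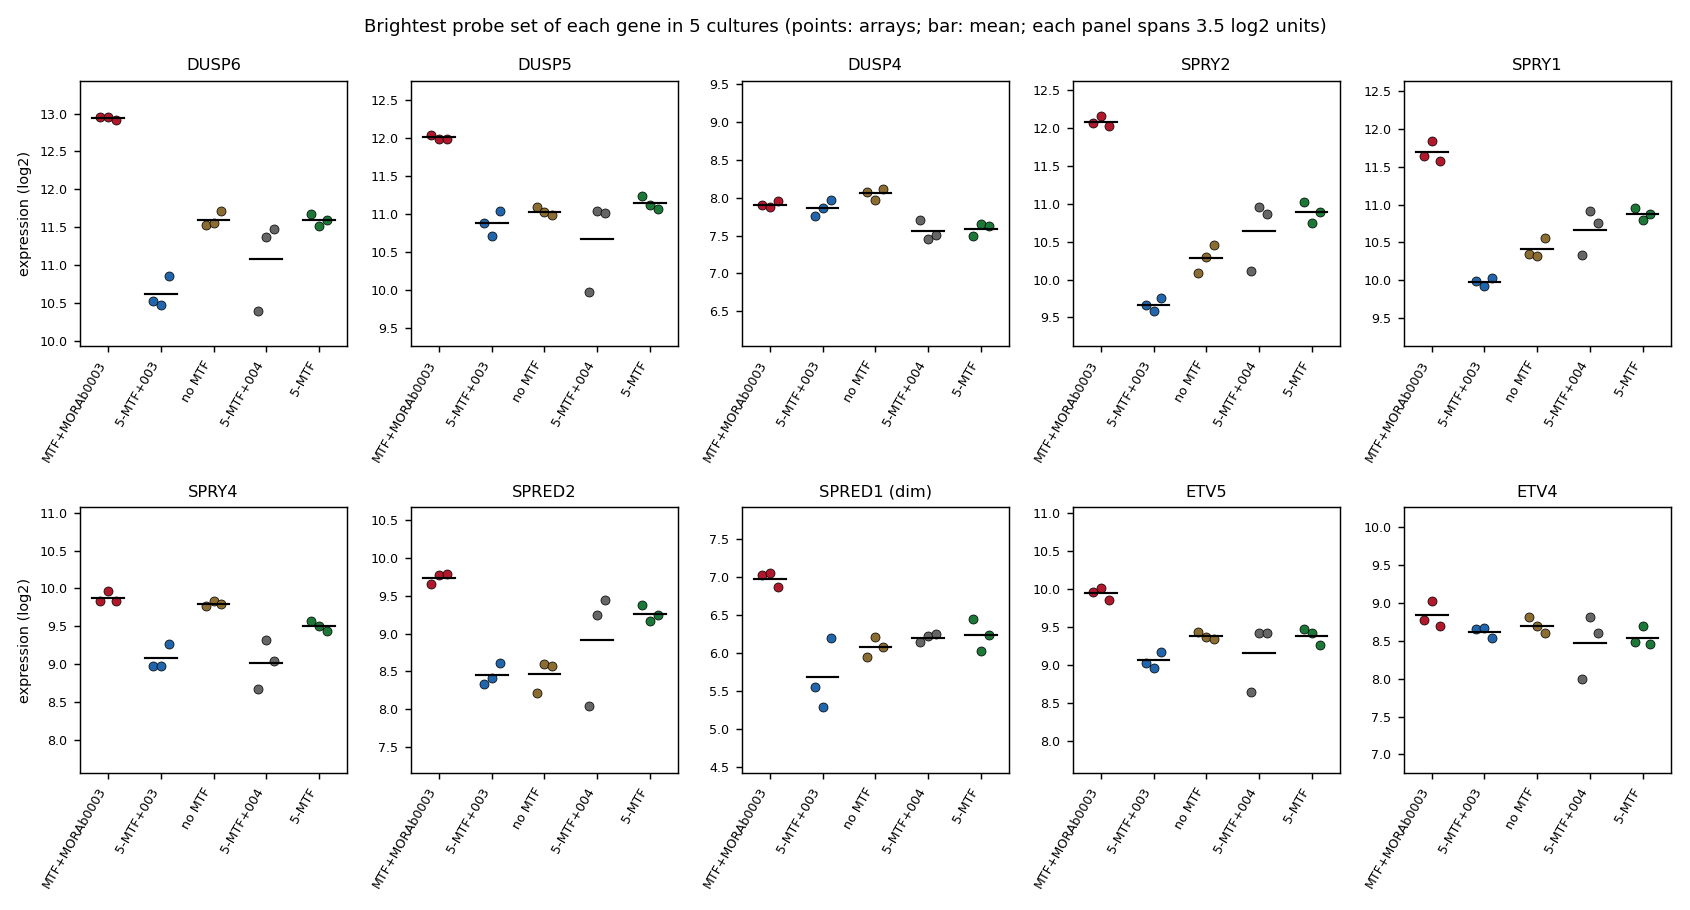
Level (log2, vertical axis) of the brightest probe set of each of the 10 genes in each of the 5 cultures; points are the 3 arrays of 1 RNA extract and bars their mean, and every panel spans the same number of log2 units. MTF+MORAb0003 lies above all other arrays for DUSP6, DUSP5, SPRY2, SPRY1, SPRED2, SPRED1 and ETV5, and not for DUSP4 or ETV4; for SPRY4 its arrays lie close to those of no MTF.

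SPRY2, a Sprouty inhibitor of receptor tyrosine kinase signalling, spanned the widest range of culture means among the 24 probe sets, 2.42 on the log2 scale. Its probe set 204011_at read 12.06, 12.16 and 12.03 in MTF+MORAb0003, 9.66, 9.58 and 9.76 in 5-MTF+003, 10.09, 10.30 and 10.45 in no MTF, 10.11, 10.96 and 10.86 in 5-MTF+004, and 11.02, 10.75 and 10.89 in 5-MTF. The order was MTF+MORAb0003, 5-MTF, 5-MTF+004, no MTF and 5-MTF+003, with overlap between neighbours only where 5-MTF+004 met 5-MTF and no MTF. SPRY2 was 2.29-fold higher in MTF+MORAb0003 than in 5-MTF and 2.71-fold higher than in 5-MTF+004, where the log2 difference was 1.44 or 1.17 without replicate 1 of 5-MTF+004. It was 2.33-fold lower in 5-MTF+003 than in 5-MTF. The gap between the 2 antibody cultures was 5.33-fold for SPRY2, against 5.01-fold for DUSP6.

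SPRY1, a close relative, had the same order of cultures as SPRY2 in its brightest probe set and another order in its second one. The brightest, 212558_at, read 11.64, 11.84 and 11.58 in MTF+MORAb0003, 9.99, 9.92 and 10.03 in 5-MTF+003, 10.35, 10.32 and 10.56 in no MTF, 10.33, 10.92 and 10.76 in 5-MTF+004, and 10.96, 10.79 and 10.87 in 5-MTF. The second, 230212_at, read 7.84, 7.79 and 8.05 in MTF+MORAb0003, 8.21, 8.28 and 8.21 in 5-MTF+003, 8.59, 8.54 and 8.44 in no MTF, 7.20, 7.72 and 7.80 in 5-MTF+004, and 7.93, 8.03 and 7.89 in 5-MTF. In the second the no MTF arrays were the highest, and MTF+MORAb0003 overlapped 5-MTF. Between MTF+MORAb0003 and 5-MTF the probe sets differed by 0.81 and -0.06, and between 5-MTF+003 and 5-MTF by -0.89 and 0.28. Over the 15 arrays they correlated at r = -0.38, and at -0.65 without replicate 1 of 5-MTF+004. Where each probe set lies along the transcripts was not used here.

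SPRY4, the third Sprouty gene, was about as high without folate as with MORAb003. Its probe set 221489_s_at read 9.83, 9.97 and 9.83 in MTF+MORAb0003, 8.98, 8.98 and 9.27 in 5-MTF+003, 9.77, 9.83 and 9.80 in no MTF, 8.67, 9.32 and 9.04 in 5-MTF+004, and 9.57, 9.50 and 9.44 in 5-MTF. Its MTF+MORAb0003 and no MTF arrays lay above those of 5-MTF, and the 5-MTF+003 and 5-MTF+004 arrays lay below them and overlapped each other. Relative to 5-MTF, SPRY4 differed by 0.37 in MTF+MORAb0003 and -0.43 in 5-MTF+003, both under 1.5-fold.

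SPRED2, which like SPRED1 acts on the step from RAS to RAF, was low both with 003 and without folate. Its 1 probe set above the filter, 212458_at, read 9.66, 9.77 and 9.78 in MTF+MORAb0003, 8.33, 8.41 and 8.61 in 5-MTF+003, 8.22, 8.60 and 8.57 in no MTF, 8.05, 9.25 and 9.44 in 5-MTF+004, and 9.38, 9.17 and 9.24 in 5-MTF. The 5-MTF+003 and no MTF arrays overlapped each other and lay below those of 5-MTF. The difference between 5-MTF+003 and 5-MTF was -0.82. Against 5-MTF+004 it was -0.46 with overlap, and -0.89 without overlap once replicate 1 of 5-MTF+004 was left out. The other 2 SPRED2 probe sets stayed between culture means of 5.24 and 5.44.

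SPRED1 was dim in all its probe sets. Its brightest, 235074_at, read 7.03, 7.05 and 6.87 in MTF+MORAb0003, 5.55, 5.29 and 6.19 in 5-MTF+003, 5.94, 6.21 and 6.08 in no MTF, 6.14, 6.22 and 6.25 in 5-MTF+004, and 6.45, 6.02 and 6.23 in 5-MTF. Only the MTF+MORAb0003 arrays were clear of the others, and each other culture overlapped its neighbours in the order of the means. A second probe set, 226837_at, likewise read 6.92 in MTF+MORAb0003 and between 5.39 and 5.79 in the other cultures, while 244439_at lay between 4.62 and 5.01 throughout. SPRED1 was not tested, as its mean over all arrays was under the filter.

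Of the transcription factors, ETV5 was higher with MORAb003 in its brightest probe set and not in the other ones. The brightest, 203349_s_at, read 9.97, 10.01 and 9.86 in MTF+MORAb0003, 9.03, 8.96 and 9.17 in 5-MTF+003, 9.44, 9.37 and 9.34 in no MTF, 8.65, 9.42 and 9.42 in 5-MTF+004, and 9.47, 9.42 and 9.27 in 5-MTF. MTF+MORAb0003 was clear of every other array, 0.56 over 5-MTF and thus under 1.5-fold. In 203348_s_at and 216375_s_at the MTF+MORAb0003 mean was lower than that of 5-MTF, by differences of -0.22 and -0.21. The culture means of the 2 dim ETV5 probe sets spanned at most 0.34.

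ETV4 had the narrowest span of culture means among the brightest probe sets of the 10 genes. Its brightest, 211603_s_at, read 8.78, 9.03 and 8.70 in MTF+MORAb0003, 8.66, 8.67 and 8.54 in 5-MTF+003, 8.81, 8.69 and 8.60 in no MTF, 7.99, 8.82 and 8.60 in 5-MTF+004, and 8.48, 8.69 and 8.46 in 5-MTF, and every culture overlapped its neighbour in the order of the means. The dimmer 1554576_a_at read 7.71 ± 0.098 in MTF+MORAb0003 against 7.01 ± 0.11 in 5-MTF (SD, n = 3 arrays each), and there the MTF+MORAb0003 arrays were clear of all others.

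**Figure D2:**
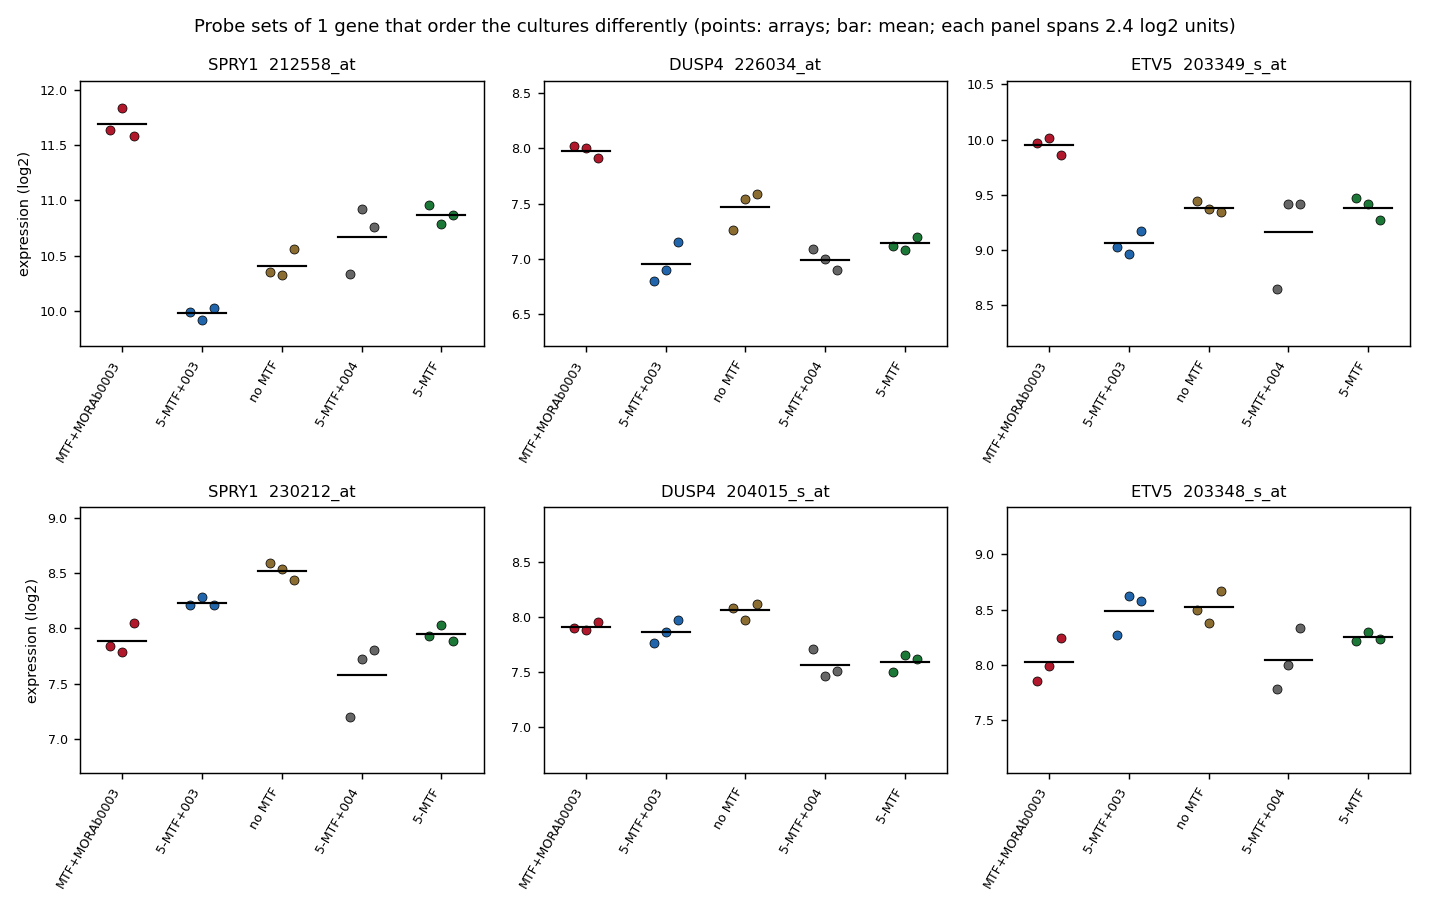
Levels (log2, vertical axis) of 2 probe sets each of SPRY1, DUSP4 and ETV5 in the 5 cultures; points are the 3 arrays of 1 RNA extract, bars their mean, and all panels span the same number of log2 units. Within each gene one probe set has MTF+MORAb0003 on top (212558_at, 226034_at, 203349_s_at) and the other has no MTF on top (230212_at, 204015_s_at, 203348_s_at).

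The members above the filter were counted in MTF+MORAb0003 against both folate-fed controls. Against 5-MTF, 8 of the 17 probe sets, from 6 genes, stood apart and higher and 0 lower, where 8.53% of all 27307 probe sets stood apart and higher and 2.13% lower. The means of SPRY1 230212_at, ETV5 203348_s_at and ETV5 216375_s_at were lower there, by differences of -0.06, -0.22 and -0.21. Against 5-MTF+004 the count was 12 of 17 higher, from 9 genes, and 0 lower, with 18.4% of all probe sets higher and 2.5% lower. Without replicate 1 of 5-MTF+004 it was 10 of 17 higher and 0 lower, against 9.94% and 2.53% of all, and SPRED2 and ETV5 203349_s_at were the ones lost. The genes were picked for these cultures, and nothing is read from the counts. Both comparisons share the MTF+MORAb0003 arrays. The actin gap of MTF+MORAb0003 differed from that of 5-MTF by -0.82, and its part in these differences was not tested.

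With 003 the Sprouty genes SPRY1 and SPRY2, and DUSP6 and SPRED2, were low. Against 5-MTF, 6 of 17 probe sets from these 4 genes stood apart and lower, and 0 higher, where 6.19% of all probe sets stood apart and lower and 0.875% higher. Against 5-MTF+004, 2 of 17 were lower (SPRY1 212558_at and SPRY2) and 2 higher (SPRY1 230212_at and DUSP4 204014_at), where 0.656% of all probe sets were lower and 4.68% higher. Without replicate 1 of 5-MTF+004 this became 6 lower and 0 higher, with 5.54% and 1.04% of all. The direction of the count against 5-MTF+004 thus turned on that array. Directly between the antibody cultures, 11 of 17 probe sets from 9 genes were higher in MTF+MORAb0003 than in 5-MTF+003, and 0 lower, with 18% and 8.04% of all probe sets. The actin gap of 5-MTF+003 differed from that of 5-MTF by 0.78, and its part in these differences was not tested.

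**Figure D3:**
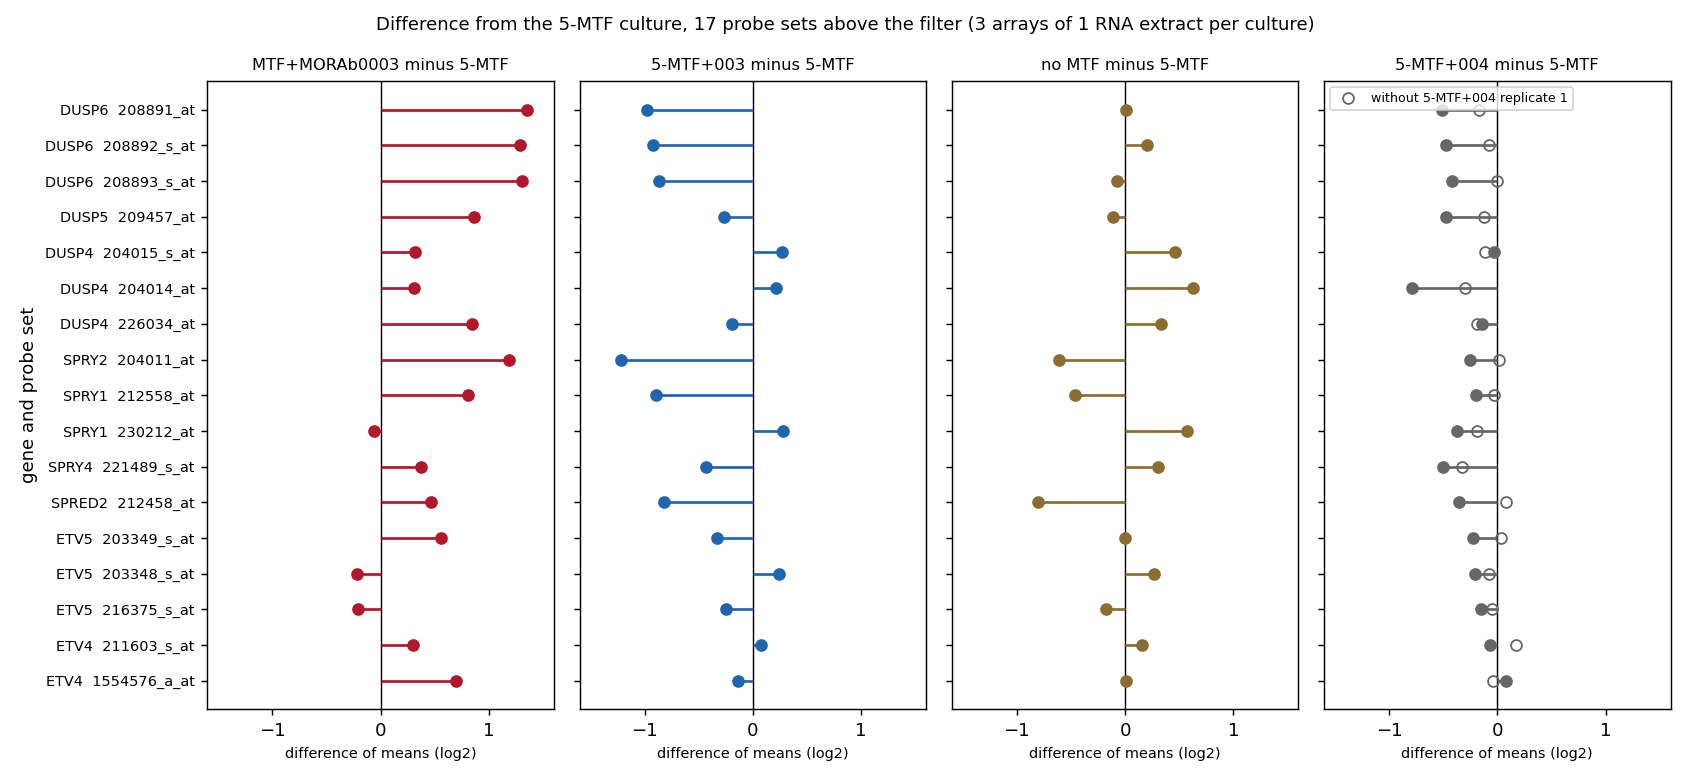
Difference of log2 means (horizontal axis) from the 5-MTF culture in each of the other 4 cultures, for the 17 probe sets above the filter; each filled point is the difference between means of 3 arrays, and open points leave out replicate 1 of 5-MTF+004. The 3 DUSP6 probe sets lie together at 1.29 to 1.35 for MTF+MORAb0003 and at -0.98 to -0.87 for 5-MTF+003, while those of SPRY1 and ETV5 split around 0.

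The arrays carry 1 of 2 dates in their names, with replicates 1 and 2 of each culture under the first and replicate 3 under the second. Within the first date DUSP6 differed between MTF+MORAb0003 and 5-MTF by 1.36, and within the second by 1.32. For SPRY2 the corresponding differences were 1.22 and 1.13. Between 5-MTF+003 and 5-MTF, DUSP6 differed by -1.09 and -0.74 and SPRY2 by -1.27 and -1.13. All of these kept their sign within each date. Both dates hold aliquots of the same RNA extracts, so the split does not replicate the cultures. DUSP6 and SPRY2 were also picked for their levels in these cultures, and nothing is read from the shared sign. Some other member probe sets changed sign, such as SPRY1 230212_at, at -0.17 and 0.16 between MTF+MORAb0003 and 5-MTF.

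The windows around annotated starts are shown for DUSP6, SPRY2 and SPRY1, which had the widest spans of culture means among the brightest probe sets, and for SPRED2, whose window held motif matches. RefSeq windows of 300 bases on GRCh38.p14, with 250 bases before and 50 after an annotated start, were used. They covered 6 of the 10 genes, with DUSP4 left out by choice. There were 10 windows, since SPRY1, SPRY2 and SPRED2 have several starts. Each was searched on both strands for an ETS motif (CCGGAAG), an AP-1 motif (TGANTCA) and a CRE motif (TGACGTCA), none of which overlapped another in these windows. Of all 35116 promoter windows, 10.3% held the ETS letters, 7.71% the AP-1 letters and 1.85% the CRE letters. The 4 windows below run 5′ to 3′ on the strand of the gene, with matches in capitals. They are DUSP6 at chr12:89352452-89352751 (minus strand), the outermost SPRY2 start at chr13:80341077-80341376 (minus), the inner SPRY1 start at chr4:123398136-123398435 (plus) and the inner SPRED2 start at chr2:65366729-65367028 (minus).
DUSP6: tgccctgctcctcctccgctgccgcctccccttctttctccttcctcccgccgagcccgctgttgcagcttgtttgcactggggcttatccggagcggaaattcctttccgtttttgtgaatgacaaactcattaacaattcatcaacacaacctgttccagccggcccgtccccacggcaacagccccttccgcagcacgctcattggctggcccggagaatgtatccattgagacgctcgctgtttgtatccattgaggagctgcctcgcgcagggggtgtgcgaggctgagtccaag
SPRY2: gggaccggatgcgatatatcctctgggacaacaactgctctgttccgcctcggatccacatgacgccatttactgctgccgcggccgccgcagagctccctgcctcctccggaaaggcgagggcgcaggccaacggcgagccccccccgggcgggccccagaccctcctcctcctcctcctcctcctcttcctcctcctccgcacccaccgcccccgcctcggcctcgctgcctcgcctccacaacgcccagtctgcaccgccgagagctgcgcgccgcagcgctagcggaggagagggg
SPRY1: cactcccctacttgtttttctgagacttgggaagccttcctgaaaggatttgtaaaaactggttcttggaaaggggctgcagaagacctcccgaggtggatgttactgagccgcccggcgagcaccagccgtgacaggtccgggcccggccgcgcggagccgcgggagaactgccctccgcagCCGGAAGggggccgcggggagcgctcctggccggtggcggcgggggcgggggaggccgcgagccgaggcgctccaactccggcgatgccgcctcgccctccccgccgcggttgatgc
SPRED2: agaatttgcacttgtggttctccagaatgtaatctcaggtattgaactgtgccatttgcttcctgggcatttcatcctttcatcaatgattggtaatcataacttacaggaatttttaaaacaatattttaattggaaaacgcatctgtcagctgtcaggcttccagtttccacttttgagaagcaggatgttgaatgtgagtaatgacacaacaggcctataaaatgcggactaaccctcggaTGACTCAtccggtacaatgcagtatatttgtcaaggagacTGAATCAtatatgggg
The SPRY1 window shown held 1 ETS match. The SPRED2 window shown held 2 matches to the AP-1 letters, TGACTCA and TGAATCA, as any middle base was allowed. The DUSP6 window, the 3 SPRY2 windows, the SPRY4 and SPRED1 windows and the other windows of SPRY1 and SPRED2 held none of the 3. The CRE letters were in 0 of the 10. The windows of SPRY1 and SPRY2 shown were rich in G and C, at 69.3% and 71%. That of DUSP6 was at 58.3% and that of SPRED2 at 39.3%, with a median of 58.7% over all windows. Other windows of the same genes differed, at 47.7% for SPRY1, 44.7% and 63% for SPRY2 and 60% for SPRED2. A match is only a run of letters, and a window without one says nothing about the factor.

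The comparison of folate-free with folate-fed cells was not used to pick the genes and was tested with limma over all 27307 probe sets. Its 5-MTF arrays are also a reference for the antibody cultures whose levels led to the choice. This test and that of 5-MTF+004 below are therefore not fully independent of the choice. In no MTF against 5-MTF 0 of 17 member probe sets were called, where calling took an adjusted p under 0.05 and at least 1.5-fold. Of all probe sets 4.11% were called (1.66% higher and 2.45% lower). At an unadjusted p under 0.05 there were 6 of 17, and 5385 of all. DUSP6 had nearly the same mean in both cultures. Its brightest probe set read 11.60 ± 0.10 in no MTF and 11.59 ± 0.073 in 5-MTF (SD, n = 3 arrays each), a difference of 0.01 (SE 0.21, adjusted p = 0.995). DUSP5 and the brightest probe sets of ETV5 and ETV4 also differed by no more than 0.16, with adjusted p-values from 0.712 to 1. SPRY2 differed by -0.61 (SE 0.18, adjusted p = 0.0595), SPRED2 by -0.80 (SE 0.26, adjusted p = 0.0885) and SPRY1 212558_at by -0.46 (SE 0.14, adjusted p = 0.0619). SPRY4 differed by 0.30 (SE 0.14, adjusted p = 0.26). The 3 DUSP4 probe sets were all higher without folate by their means, at 0.46 (adjusted p = 0.0123), 0.63 (adjusted p = 0.275) and 0.33 (adjusted p = 0.11), and the SPRY1 probe set 230212_at differed by 0.57 (adjusted p = 0.0249). None of the 3 DUSP4 probe sets passed both thresholds.

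These calls depended on replicate 1 of 5-MTF+004, which enters through the shared error alone. Without it 3 of 17 probe sets were called, 1 higher and 2 lower, and 7.5% of all, 2.21% higher and 5.29% lower. SPRY2 fell by 0.61 (adjusted p = 0.000141), SPRED2 fell by 0.80 (adjusted p = 3e-05) and DUSP4 204014_at rose by 0.63 (adjusted p = 0.00182). The same 3 probe sets were called from the 6 arrays of these 2 cultures alone. The actin gap was larger by 0.85 in no MTF than in 5-MTF, and its part in these differences was not tested. DUSP6 208891_at and 208893_s_at differed by 0.01 and -0.07 between these 2 cultures with overlap, and 208892_s_at by 0.2 without overlap.

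The control antibody 004 was compared with folate alone in the same way. With limma 0 of 17 member probe sets and 0 of 27307 in all were called (0%), and at an unadjusted p under 0.05 there were 5 and 2430. The median difference over all probe sets was itself -0.112, and -0.010 after quantile normalization, and over the brightest probe sets of all genes it was -0.139, or 0.009 without the array that stood apart. DUSP6 differed by -0.51 (SE 0.21, adjusted p = 0.433), or -0.17 without that array. SPRY2 differed by -0.25 (SE 0.18, adjusted p = 0.446), or by 0.02. After quantile normalization the SPRY2 difference was 0.00, that of SPRY1 was 0.03 where it had been -0.20, and that of DUSP6 was -0.27. SPRY4 kept the larger part of its difference, at -0.50 (SE 0.14, adjusted p = 0.433) and -0.33 without that array.

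RNA quality ran alongside several of these levels. In the order of the actin gap, from small to large, the cultures were MTF+MORAb0003, 5-MTF, 5-MTF+004, 5-MTF+003 and no MTF. The order of SPRY2, SPRY1 212558_at and SPRED2 from high to low differed from it only in the last 2. The GAPDH probe sets gave gaps of 1.21 in MTF+MORAb0003, 1.97 in 5-MTF, 2.05 in 5-MTF+004, 2.37 in no MTF and 2.49 in 5-MTF+003. That order, from small to large, was the same as the order of SPRY2, SPRY1 212558_at and SPRED2 from high to low. DUSP6 departed from both gap orders. Its no MTF and 5-MTF means were nearly the same at actin gaps of 4.09 and 3.24. Its 5-MTF+003 mean, at an actin gap of 4.02, lay below both. The brightest DUSP4 probe set followed neither gap order, with no MTF on top. Replicate 1 of 5-MTF+004 had an actin gap of 3.82 against 3.28 and 3.27 in its sister arrays, and read lower for DUSP6, SPRY2 and SPRY1. The part of RNA quality in the differences was not tested.

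**Figure D4:**
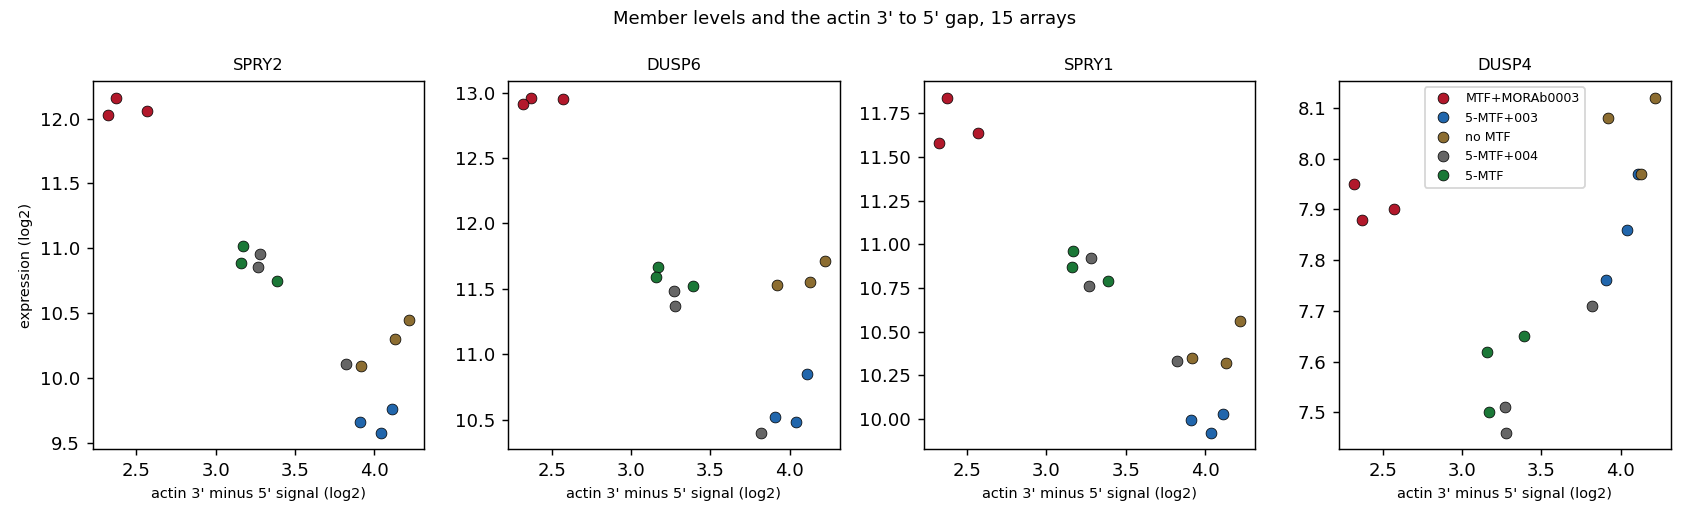
Level (log2, vertical axis) of the brightest probe set of SPRY2, DUSP6, SPRY1 and DUSP4 against the actin 3′ minus 5′ signal (log2, horizontal axis) in 15 arrays; each point is 1 array, coloured by culture. MTF+MORAb0003 has gaps of 2.32 to 2.57 and the top levels of SPRY2, DUSP6 and SPRY1, and at gaps of 3.91 to 4.22 the no MTF and 5-MTF+003 arrays are far apart for DUSP6.

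Other genes of the pathway were read from lists, each gene by its brightest probe set. Of 20 other ERK output genes, 19 were on the array and above the filter. Against 5-MTF, 6 of 19 stood apart and higher in MTF+MORAb0003 and 0 lower, where 8.09% of 13569 genes were higher and 2.08% lower, and the list's median difference was 0.31 against -0.036 for all genes. FOS, an early AP-1 subunit, differed by 1.64, EREG, a ligand of the EGF receptor, by 1.09, EGR1 by 1.02 and MYC by 0.79. PHLDA1 and TRIB1 followed at 0.70 and 0.61, while CCND1, a cyclin, and HBEGF, another EGF receptor ligand, both differed by 0.05. The means of MCL1, IER3, UPP1 and SPHK1 were lower, by differences of -0.48, -0.38, -0.30 and -0.07, none apart. Against 5-MTF+004, 9 of 19 stood apart and higher and 0 lower, where 18.9% of all genes were higher and 2.26% lower. Without replicate 1 of 5-MTF+004 it was 7 and 0, with 9.73% and 2.46% of all genes. In 5-MTF+003 against 5-MTF, 1 of 19 stood apart and higher (FOSL1, 0.61) and 1 lower (PHLDA1, -0.93), with 0.766% and 6.68% of all genes and a list median of 0.03 against 0.032. FOS and EGR1 differed there by -0.55 and 0.03, neither of them apart. In no MTF against 5-MTF limma called 1 of 19, the transcription factor MYC, which fell by 0.62 (SE 0.15, adjusted p = 0.0293), with 2.22% of all genes lower and 1.02% higher.

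Among 6 other MAP kinase phosphatases above the filter of 7 listed, DUSP1, an early stress- and ERK-induced phosphatase, differed by 0.95 in MTF+MORAb0003 and by -0.65 in 5-MTF+003, each against 5-MTF, and stood apart in both, where 8.09% of all genes were higher in the first and 6.68% lower in the second. None of DUSP2, DUSP7, DUSP8, DUSP9 and DUSP16 stood apart in either. Of 5 relatives, 4 were above the filter. IL17RD, a membrane antagonist of FGF signalling also called Sef, stood 1.12 higher in MTF+MORAb0003 than in 5-MTF and differed by 0.01 in 5-MTF+003. LRIG1, SPRED3 and ETV1 differed from 5-MTF by 0.33, -0.52 and 0.04 in MTF+MORAb0003, none apart.

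For the kinase cascade itself the shares that stood apart from 5-MTF were near those of all genes. Of 33 genes listed 26 had a probe set named for them alone and 24 passed the filter. In MTF+MORAb0003 against 5-MTF, 2 of 24 stood apart and higher and 1 lower, where 8.09% of all genes were higher and 2.08% lower, with a median of 0.04 against -0.036 for all genes. ERBB3, a receptor of the EGF receptor family, differed by 0.87, RPS6KA3, an ERK-activated kinase, by 0.71, and HRAS by -0.74. In 5-MTF+003 against 5-MTF, 1 of 24 stood apart, RPS6KA3 at -0.74, where 6.68% of all genes were lower. Against 5-MTF+004, 5 of 24 were apart and higher in MTF+MORAb0003 and 0 lower, with 18.9% and 2.26% of all genes, or 3 and 1 without replicate 1 of 5-MTF+004, with 9.73% and 2.46%. Between the antibody cultures 6 were higher in MTF+MORAb0003 and 3 lower than in 5-MTF+003, with 18.8% and 8.19% of all genes. Without folate limma called 0 of 24 higher and 2 lower, with 1.02% and 2.22% of all genes: FGFR2, a fibroblast growth factor receptor, fell by 0.98 (SE 0.13, adjusted p = 0.00102) and MAP2K1, the gene of MEK1, fell by 0.77 (SE 0.15, adjusted p = 0.00921).

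Genes with patterns like those of DUSP6 and SPRY1 were looked for among 1789 other genes whose culture means spanned at least 1 log2 unit. Over the 5 culture means ZNF185 (Pearson r = 0.9999), BAZ2B (0.9995), VIM (0.9993), TSC22D3 (0.9991) and NRCAM (0.9982) were nearest to DUSP6. VIM, the intermediate filament vimentin, read 13.16 in MTF+MORAb0003, 11.94 in 5-MTF+003, 12.47 in no MTF, 12.16 in 5-MTF+004 and 12.45 in 5-MTF. For SPRY1 212558_at the nearest were GLUD1 (0.9993), LAMP2 (0.9976), PAPSS1 (0.9972), HSD17B11 (0.9966) and STAU2 (0.9955). Each value rests on 5 points, and the genes named are the top of a ranking of 1789. In that ranking 25 genes exceeded 0.99 for DUSP6 and 22 for SPRY1.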

How the data were processed

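Expression was measured in 15 arrays, 3 aliquots of 1 RNA extract for each of 5 cultures. Per probe set, the authors deposited log2 values (4.00 to 15.5) from Affymetrix U133 Plus 2.0 arrays. Per the labels' protocols, RNA came from Trizol extraction and biotinylated cRNA from the standard Affymetrix protocol. How the signals were summarised and normalized is not stated in the labels; the values were not normalized again.

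Of 54675 probe sets, 62 controls were left out. In GEO's platform annotation 41091 of the others carried 1 symbol, 1801 several and 11721 none. Symbols were updated through Entrez identifiers (41037 matched). Probe sets with a mean over the 15 arrays of at least 6.61 were fitted (27307) with limma 3.58.1 in R 4.3.3, as 5 culture means with 10 residual degrees of freedom and Benjamini-Hochberg adjustment over all fitted probe sets. The fit was tested on simulated data. Only the no MTF and 5-MTF+004 cultures, each against 5-MTF, were tested; differences that led to the choice of genes were described. Lists were read through each gene's brightest probe set. All 10 genes were named, and up to 4 genes of a list with the largest differences, plus uncalled examples.

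The genes, lists and tests were chosen with earlier results of these data known. Alternatives were quantile normalization, other filters and fold minimums, 1 probe set or the mean of all probe sets per gene, a block for the replicate number or for the array date, a fit on the 6 compared arrays alone, and leaving out each array. Leaving out replicate 1 of 5-MTF+004 where it enters only through the shared error was added after seeing the data. The number of arrays and the single culture per condition limit the precision.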

Additional observations from a re-analysis of the deposited data

How the results depend on the processing

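For no MTF against 5-MTF, where 0 member probe sets and 1121 of all were called, quantile normalization called 1 member (SPRED2, lower), a filter at the 75th percentile 1 (SPRY2, lower), no fold minimum 2 (SPRY1 230212_at and DUSP4 204015_s_at, higher) and only the 6 arrays compared 3. Leaving out single arrays called between 0 and 3 members and between 464 (without replicate 1 of 5-MTF) and 2047 of all (without replicate 1 of 5-MTF+004). The member calls came without replicate 2 of 5-MTF (1) and without replicate 1, 2 or 3 of 5-MTF+004 (3, 1 and 2). Leaving out any no MTF array gave 569 to 723 calls over all probe sets, and leaving out replicate 3 of 5-MTF gave 563. Of all probe sets, 1 probe set per gene gave 393 calls, a 2-fold minimum 256 and the 6 arrays 2042. The first of these tests fewer features. Quantile normalization called 639 of all probe sets higher and 840 lower. The corresponding counts for the stricter filter and for no fold minimum are not given here. Nothing is read from the member calls under these settings. For 5-MTF+004 against 5-MTF the count stayed 0 under each alternative run.

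The described counts moved with 1 probe set per gene and with a 2-fold minimum. For MTF+MORAb0003 against 5-MTF+004 both gave 7 in place of 12, and leaving out single arrays gave 10 to 12. Against 5-MTF both gave 4 in place of 8, and leaving out arrays 8 to 9. For 5-MTF+003 against 5-MTF+004 they gave 2 and 1 in place of 4, and leaving out arrays 3 to 6. Against 5-MTF the 2-fold minimum gave 1 in place of 6, and leaving out arrays always 6. For MTF+MORAb0003 against 5-MTF+003, 1 probe set per gene gave 7 in place of 11, and leaving out arrays always 11. With 1 probe set per gene, the share of all genes higher in MTF+MORAb0003 was 18.9% against 5-MTF+004, 8.09% against 5-MTF and 18.8% against 5-MTF+003. In 5-MTF+003 against 5-MTF it gave 4 of 9 lower, with 6.68% of all genes lower. Shares of all probe sets at the 2-fold minimum are not given here, and nothing is read from these counts. Quantile normalization changed the split of all probe sets that stood apart from 88% to 65.2% higher for MTF+MORAb0003 against 5-MTF+004, from 80% to 66.8% against 5-MTF, from 87.7% to 68.4% for 5-MTF+003 against 5-MTF+004, from 12.4% to 22.6% against 5-MTF and from 69.1% to 58% between the antibody cultures. The members then numbered 8, 8, 6, 6 and 11. Of all probe sets, 3529, 1640, 971, 398 and 4056 were then higher, and 1887, 814, 449, 1363 and 2942 lower. The cause was not tested.

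Averaging every probe set of each gene moved 22 of 70 single-gene differences by more than the spread between arrays, and quantile normalization 18. With the mean, MTF+MORAb0003 differed from 5-MTF by 0.38 for SPRY1, 0.19 for SPRED2 and 0.01 for ETV5, in place of 0.81, 0.47 and 0.56, and 5-MTF+003 differed from 5-MTF by -0.31 for SPRY1 and -0.18 for SPRED2, in place of -0.89 and -0.82. The mean takes in dim probe sets and those that order the cultures differently.

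The replicate number does not pair the arrays: deviations from the culture means correlated over 0.1 in 8 of 30 same-numbered pairs, from -0.542 to 0.512. With the replicate block 0 members and 1028 of all were called for no MTF against 5-MTF, and 0 and 0 for 5-MTF+004. No called difference changed its sign under an alternative that was run.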

Other observations

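One further probe set, 220983_s_at, is tied to SPRY4 by its accession in the RefSeq gene table, while the platform annotation names 2 other genes for it, so it was not counted as a member. It was dim, at log2 5.19 ± 0.092 in MTF+MORAb0003, 5.34 ± 0.027 in 5-MTF+003, 5.40 ± 0.16 in no MTF, 5.68 ± 0.63 in 5-MTF+004 and 5.54 ± 0.13 in 5-MTF (SD, n = 3 arrays each). Its mean was lower in MTF+MORAb0003 than in 5-MTF by a difference of -0.35, where the SPRY4 probe set 221489_s_at differed by 0.37.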
